A study of Homo sapiens with 18 samples.

Results

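The genes described here are the growth-factor-like matricellular genes CCN1 and CCN2, the transcription factor gene SOX7, and 5 further genes known as targets of the co-activator YAP, which are AMOTL2, AJUBA, LATS2, ANKRD1 and AXL. They are 8 of the 15318 genes with enough counts to be tested, in a table of 57736 rows, and all 8 passed the filter on low counts. CCN1, CCN2 and SOX7 were picked from these data for a level that was higher 2 h after estradiol and no longer so at 8 h, so their values over time are a description and carry no test. The other 5 were chosen for what is known of them and not for their values, though earlier results of these data were known by then.

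All samples came from PEO1, a line of human ovarian cancer of the high-grade serous kind, described in the series title as mutant for p53. Cells were transfected with an siRNA against p53 (sip53) or with a control siRNA (siControl), and were then given 10 nM estradiol (E2), an agonist of estrogen receptors, for 0, 2 or 8 h. All 6 groups (sip53 at 0, 2 and 8 h, and siControl at 0, 2 and 8 h) had 3 samples, and all had first been kept in phenol red-free medium with charcoal-stripped serum, which lowers steroid hormones. The 0 h samples had no E2, and 1 line and 1 sip53 label were used. Whether the 3 samples of a group were separate cultures is not stated, so p-values refer to a spread among them that may be technical.

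The Hippo pathway is a kinase cascade in which MST kinases activate LATS kinases, and LATS kinases phosphorylate YAP and TAZ and keep them out of the nucleus. When YAP and TAZ enter the nucleus they bind TEAD transcription factors and raise target genes such as CCN1, CCN2 and ANKRD1, which are widely used as readouts of the pathway and which also respond within hours to serum and to mechanical cues. Several targets feed back on the pathway: LATS2 is one of its kinases, AMOTL2 binds and retains YAP, and AJUBA restrains the LATS kinases. CCN1 and CCN2 encode secreted proteins that bind integrins in the extracellular matrix, AXL encodes a receptor tyrosine kinase for the ligand GAS6, ANKRD1 encodes an ankyrin repeat protein best known from muscle, and SOX7 encodes a SOX family factor known from endothelium and as an inhibitor of WNT signalling.

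The promoters of CCN2 and ANKRD1, standard reporters of YAP and TEAD, and of AJUBA, the gene with an E2 response that passed the test, are shown to let the sequence be read beside the responses. Each runs from 250 bases before to 50 bases after a RefSeq start site on GRCh38.p14, on the minus strand, 5′ to 3′. The CCN2 window is chr6:131951323-131951622, the ANKRD1 window chr10:90921038-90921337 and the AJUBA window chr14:22982502-22982801. Capitals mark matches, on either strand, to the TEAD site GGAATG, a loose AP-1 pattern TGANTCA (N is any base), the CArG box that SRF binds, and the TATA box TATAAA.
CCN2: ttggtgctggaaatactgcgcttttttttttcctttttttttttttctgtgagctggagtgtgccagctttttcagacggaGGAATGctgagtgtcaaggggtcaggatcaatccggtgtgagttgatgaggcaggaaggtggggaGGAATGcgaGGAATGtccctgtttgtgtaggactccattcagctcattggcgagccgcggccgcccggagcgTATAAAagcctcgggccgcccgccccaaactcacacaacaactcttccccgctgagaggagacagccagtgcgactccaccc
ANKRD1: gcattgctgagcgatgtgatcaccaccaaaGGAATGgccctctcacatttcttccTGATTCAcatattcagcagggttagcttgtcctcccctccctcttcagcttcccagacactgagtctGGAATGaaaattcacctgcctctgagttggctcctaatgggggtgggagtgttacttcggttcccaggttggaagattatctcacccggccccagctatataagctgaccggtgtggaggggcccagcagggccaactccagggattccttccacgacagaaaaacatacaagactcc
AJUBA: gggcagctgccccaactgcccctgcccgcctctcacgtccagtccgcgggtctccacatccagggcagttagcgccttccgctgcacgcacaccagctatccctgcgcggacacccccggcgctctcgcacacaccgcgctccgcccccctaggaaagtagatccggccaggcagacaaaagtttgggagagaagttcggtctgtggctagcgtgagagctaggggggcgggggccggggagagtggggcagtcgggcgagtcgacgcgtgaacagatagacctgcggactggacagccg
The CCN2 window held 3 TEAD matches, beginning at -169, -104 and -95 relative to the start, and a TATA box at -32. The ANKRD1 window held 2 TEAD matches, at -220 and -128, and a match to the loose AP-1 pattern at -195, which reads TGATTCA. The AJUBA window shown held none of the 4 motifs, and the second AJUBA window in the table held a TEAD match at -59. RefSeq windows were at hand for 6 of the 8 genes (CCN2, AMOTL2, AJUBA, LATS2, ANKRD1 and AXL), 9 windows in all, and 6 of the 9 held a TEAD match, against 14% of all 35116 promoter windows. These genes were chosen as YAP targets, so this share is no independent result. None of the 9 windows held the full palindromic estrogen response element (0.057% of all windows) or a CArG box (1.29%). One arm of that element, GGTCA, which the full element also contains, was in 4 of the 9 windows (37.4% of all). A match is a description of the letters and not a binding site.

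Depth ran from 7542457 to 11307199 counts per sample, and the spread between samples gave a biological coefficient of variation of 15.2% over all genes. The 8 genes were covered unequally: AMOTL2 had 38 to 138 counts per library and ANKRD1 64 to 259, against 529 to 2617 for CCN1 and 585 to 1389 for AXL. Single libraries stood apart at 0 h. sip53 0 h replicate 1 lay at -3.1 on the first principal component, where the other sip53 libraries lay at 18.8 to 44 and the siControl libraries at -49.9 to -10.6. Values at 0 h in sip53, and differences from them, rest in part on that library. siControl 0 h replicate 2 had the lowest total count and lay at -41.7 on the second principal component, and it was the lowest of its group for CCN1, CCN2, AMOTL2, AJUBA, LATS2 and ANKRD1. Member values at 0 h in siControl, and differences from them, rest in part on siControl 0 h replicate 2, and those that it moves most are given with and without it below. Epithelial and ovarian markers were all detected (13 of 13). COL1A2, COL3A1, DCN, LUM and POSTN of the fibroblast list and PTPRC, CD3E and TYROBP of the leukocyte list had no count in any library. Still, 2 of 9 fibroblast, 1 of 8 endothelial and 2 of 8 leukocyte markers passed the filter on low counts. Those lists summed to 90.6 to 150, 1.67 to 6.09 and 9.21 to 20 CPM (counts scaled to library size), in that order. The summed level of the epithelial list was 7245 to 8592 CPM in sip53 libraries and 5877 to 6540 CPM in siControl libraries, with no overlap. Its part in the differences between the siRNAs given below was not tested. In bulk RNA, fewer cells of a type and less RNA per cell cannot be told apart.

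CCN1, CCN2 and SOX7 after E2. The 3 genes picked for a transient response had their highest group mean at 2 h in both arms. CCN1 and SOX7 were 1.93-fold and 3.32-fold higher at 2 h than at 0 h in sip53 cells, and 1.97-fold and 2.63-fold higher in siControl cells. CCN2 differed less at 2 h (1.26-fold in sip53, 1.5-fold in siControl) and ended lower at 8 h than it began. Levels are TMM-normalised CPM, and they are compared within a gene and not between genes.

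CCN1, on chromosome 1 (chr1:85580761-85583962, plus strand, GRCh38), had 117, 126 and 123 CPM at 0 h, 233, 256 and 218 CPM at 2 h, and 106, 113 and 121 CPM at 8 h in sip53 cells. The siControl libraries had 145, 67.9 and 130 CPM at 0 h, 207, 216 and 254 CPM at 2 h, and 113, 135 and 127 CPM at 8 h. Every 2 h library lay above every 0 h and 8 h library in both arms. Ordered by group mean, the 2 h groups (236 ± 19.2 CPM in sip53, 226 ± 25.4 CPM in siControl, SD, n = 3) overlapped each other and stood clear of the 4 other groups, which overlapped their neighbours throughout. The log2 difference of 2 h from 0 h was 0.95 ± 0.17 (SE) in sip53 and 0.98 ± 0.17 in siControl, and that of 8 h from 2 h was -1.06 ± 0.17 and -0.85 ± 0.17 in the same arms. Without siControl 0 h replicate 2 the siControl value at 2 h was 0.73. CCN1 at 8 h was back near its 0 h level, with log2 differences of -0.11 ± 0.17 in sip53 and 0.13 ± 0.17 in siControl, the second of which was -0.14 without that library.

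CCN2, also known as CTGF (chr6:131948176-131951373, minus strand), had 19.3, 21.1 and 19.4 CPM at 0 h, 21.3, 26.3 and 27.7 CPM at 2 h, and 10.6, 11.4 and 12 CPM at 8 h in sip53 cells. In siControl cells it had 14.3, 11.9 and 18.2 CPM at 0 h, 17.6, 24.6 and 24.3 CPM at 2 h, and 10.4, 15.3 and 12.9 CPM at 8 h. The 2 h libraries lay above the 0 h libraries by a narrow margin in sip53 and overlapped them in siControl, where the lowest 2 h library (17.6 CPM) was under the highest 0 h library (18.2 CPM). At 8 h, all 3 sip53 libraries were under all 3 at 0 h, with a log2 difference of -0.81 ± 0.18, while the siControl libraries at 8 h overlapped those at 0 h (-0.20 ± 0.18). Without siControl 0 h replicate 2, the siControl values were 0.46 at 2 h and -0.33 at 8 h. The CCN2 difference of 8 h from 2 h was -1.15 ± 0.18 in sip53 and -0.78 ± 0.18 in siControl, near that of CCN1, with no overlap in either arm. Of the 3 genes, CCN2 had the smallest fitted difference at 2 h in both arms.

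SOX7 (chr8:10723768-10730512, minus strand) had 8.88, 12.1 and 10.6 CPM at 0 h, 31.1, 34.8 and 38.7 CPM at 2 h, and 18.5, 14.3 and 16.9 CPM at 8 h in sip53 cells. The siControl libraries had 6.81, 13.5 and 10.3 CPM at 0 h, 26, 26.1 and 27.5 CPM at 2 h, and 11.1, 8.58 and 14.1 CPM at 8 h. All 2 h libraries stood above all 0 h and 8 h libraries of their arm. Over all genes tested, 2 h libraries lay above 0 h libraries without overlap in 8.04% in sip53 and 7.46% in siControl. The SOX7 log2 difference at 2 h was 1.73 ± 0.20 in sip53 and 1.39 ± 0.21 in siControl. At 8 h, sip53 libraries were still above the 0 h libraries without overlap (0.66 ± 0.20), while the siControl libraries overlapped theirs (0.16 ± 0.21). Without siControl 0 h replicate 2 the siControl values were 1.66 at 2 h and 0.42 at 8 h, so the lower 8 h value in siControl rests in part on that library. The 8 h responses of the arms differed by 0.49 ± 0.30 (sip53 minus siControl, adjusted p = 0.999), and by 0.22 without it. That contrast shares libraries with those that picked SOX7, so its p-value is a description. SOX7 overlaps the annotation of PINX1 on the same strand over 5114 bases. No counts were found under that overlapping annotation, and whether it had a row of its own was not checked.

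**Figure D1:**
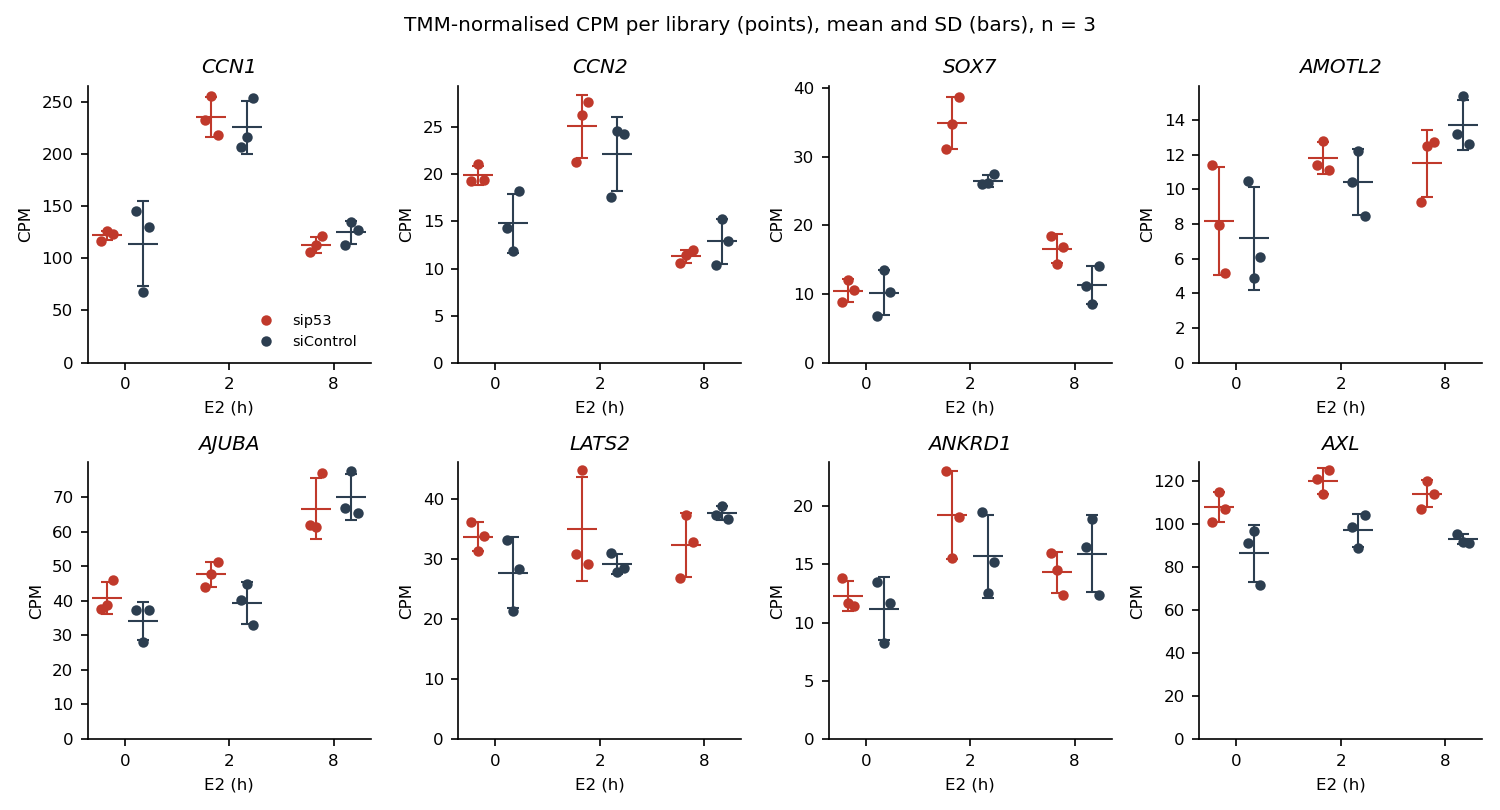
TMM-normalised CPM (y axis, from 0, a scale for each gene) of the 8 genes at 0, 2 and 8 h of E2 (x axis). Points are libraries, sip53 in red on the left and siControl in dark blue on the right, and bars give the mean and SD of n = 3. CCN1 and SOX7 stand highest at 2 h in both arms, AJUBA stands highest at 8 h, and AXL is higher in all sip53 libraries than in the siControl libraries of the same time.

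How common such a time course was can be read from all genes. A step up at 2 h and a step down from 2 h to 8 h that each passed the test in edgeR was called for 10 genes in sip53 (0.0653% of 15318), for 4 in siControl (0.0261%) and for 3 in both arms (0.0196%), which were CCN1, SOX7 and RETREG1, a receptor for autophagy of the endoplasmic reticulum. With both arms averaged, a contrast added after the data were seen, 20 genes passed both steps (0.131%). CCN1 and SOX7 are among the 20, and CCN2 is not. Since the genes were picked for this course, nothing is read from their being on the list. Others of the 20 were GATA3, KLF7, SOX9, PFKFB3, TFAP2C and EGR1. Between the arms, 0 of the 8 responses at 2 h differed past the test in edgeR, a contrast in which 0% of all genes were called, with 0 of 8 at an unadjusted p under 0.05 and 0 of 8 in DESeq2. Over all genes, 451 of 15318 had an unadjusted p under 0.05, and DESeq2 called 1. For CCN1, CCN2 and SOX7 this contrast shares libraries with those that picked them, so their part in these counts is a description. The SOX7 difference was 0.33 ± 0.29 (sip53 response minus siControl response, log2) and was 0.06 without siControl 0 h replicate 2, and the CCN1 difference was -0.03 ± 0.24, and 0.22 without that library.

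The profiles most like these were found by correlation over the 18 libraries, among 11588 genes with an average of at least 2 on the log2 CPM scale. The mean profile of CCN1, CCN2 and SOX7 was closest to KLF7, RETREG1 and GATA3 (Pearson r = 0.84 each), then SOX9 (0.83), CNPY2 (0.82), UBAC2 (0.79) and PFKFB3 (0.79). The libraries share arms and times, so these are descriptions. RETREG1 averaged 43 ± 4.3 CPM at 0 h, 131 ± 1.87 CPM at 2 h and 63.5 ± 5.1 CPM at 8 h in sip53, and 29.1 ± 3.84, 76 ± 6.41 and 45.9 ± 6.03 CPM in siControl at the same times. SOX9, a SOX factor of epithelial progenitors, averaged 29.7 ± 5.05, 57.6 ± 7.93 and 29.8 ± 5.09 CPM in sip53, and 27.6 ± 3.35, 45.9 ± 0.992 and 29.6 ± 5.72 CPM in siControl. Both followed the shape of SOX7, whereas CNPY2 varied little, with 147 ± 5.2, 154 ± 5.32 and 140 ± 2.7 CPM at 0, 2 and 8 h in sip53. Taken singly, SOX7 was closest to RETREG1 (0.91), PFKFB3 (0.86) and TFAP2C (0.83), CCN1 to GATA3, KLF7 and METTL5 (0.86 each), and CCN2 to DBN1, which encodes an actin-binding protein (0.88), and SLC16A9 (0.83). CCN1 correlated with CCN2 at r = 0.78 and with SOX7 at 0.71.

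**Figure D2:**
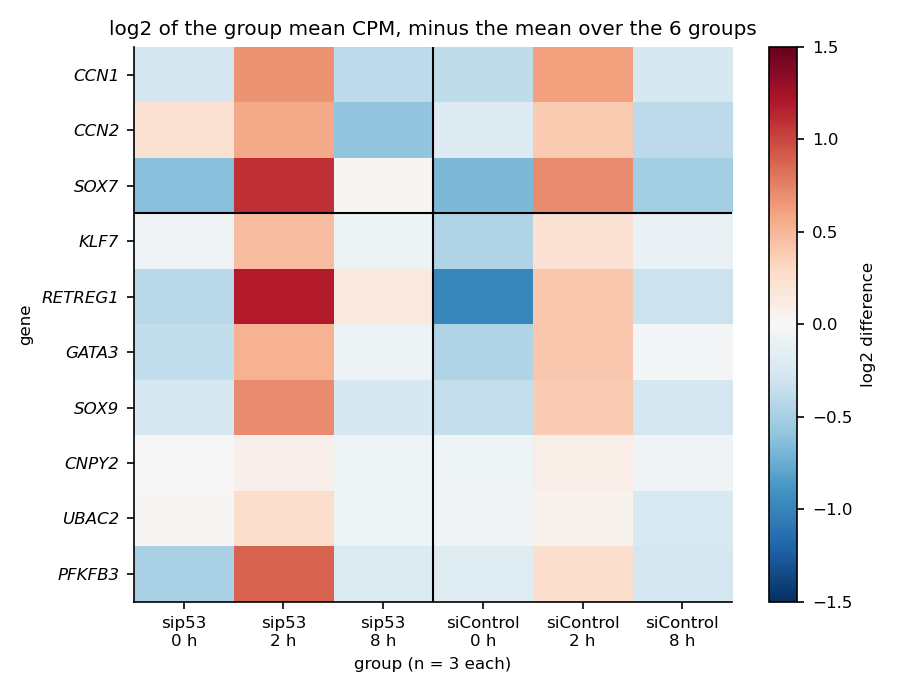
Group means of CCN1, CCN2, SOX7 and 7 of the 8 genes closest to their mean profile, as log2 of the mean CPM minus the mean over the 6 groups (color, log2 units). Columns are sip53 at 0, 2 and 8 h and then siControl at 0, 2 and 8 h (n = 3 each), and rows are genes. RETREG1, SOX9 and PFKFB3 share the high 2 h column with SOX7, and CNPY2 varies little.

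The 5 YAP targets not picked on values were tested with E2. At 2 h none of the 5 was called in edgeR's quasi-likelihood test with Benjamini-Hochberg adjustment over all genes, in sip53 (0.307% of all genes called) or in siControl (0.228%). ANKRD1 alone had an unadjusted p under 0.05 in each arm, beside 1139 of 15318 genes in sip53 and 1748 in siControl. DESeq2 called 0 of 5 in each. At 8 h, AJUBA rose in both arms, the 1 of 5 called in sip53 (2.74% of all genes called) and in siControl (2.6%). An unadjusted p under 0.05 at 8 h was found for 1 of 5 in sip53 (AJUBA), beside 2184 of 15318 genes. In siControl it was found for 4 of 5 (AMOTL2, AJUBA, LATS2 and ANKRD1), beside 2583 genes. DESeq2 called 1 of 5 in sip53 (AJUBA) and 2 of 5 in siControl (AMOTL2 and AJUBA), and 622 and 670 genes in all. The median log2 difference of the 5 at 8 h was 0.22 in sip53 and 0.50 in siControl, beside -0.01 and 0.00 over all genes tested. The contrasts at 2 h and 8 h in an arm share the 0 h libraries.

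AJUBA (chr14:22971174-22982642, minus strand), a LIM domain scaffold that holds back LATS kinases, had 37.6, 38.7 and 46.1 CPM at 0 h, 43.9, 47.6 and 51.3 CPM at 2 h, and 61.9, 61.2 and 76.8 CPM at 8 h in sip53 cells. It had 37.4, 28 and 37.3 CPM at 0 h, 40.3, 44.9 and 32.9 CPM at 2 h, and 66.7, 77.5 and 65.5 CPM at 8 h in siControl cells. All 6 libraries at 8 h lay above all libraries at 0 and 2 h, and the 0 h and 2 h libraries overlapped. Among all genes, 8 h libraries lay above 0 h libraries without overlap in 10.3% in sip53 and 10.5% in siControl. The AJUBA 8 h against 0 h difference was 0.71 ± 0.14 in sip53, 1.63-fold (adjusted p = 0.0045), and 1.03 ± 0.14 in siControl, 2.04-fold (adjusted p = 9.62e-05). From 2 h to 8 h it rose by 0.83 ± 0.14 in siControl (adjusted p = 0.00196, 1.02% of genes called), and was 0.48 ± 0.14 higher in sip53 (adjusted p = 0.0862, 1.38% of genes called), a value that DESeq2 did call (adjusted p = 0.0293). The 8 h responses did not differ past the test between the arms (-0.32 ± 0.20, sip53 minus siControl, adjusted p = 0.999). AJUBA shares 11085 bases on its strand with the annotation AL132780.3. No counts were found under AL132780.3, and whether it had a row of its own was not checked.

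AMOTL2 (chr3:134355874-134375479, minus strand), an angiomotin family protein that binds YAP, was the most thinly counted. It had 11.4, 7.92 and 5.18 CPM at 0 h, 11.4, 12.8 and 11.1 CPM at 2 h, and 9.24, 12.5 and 12.7 CPM at 8 h in sip53 cells. In siControl cells it had 10.5, 4.88 and 6.11 CPM at 0 h, 10.4, 12.2 and 8.45 CPM at 2 h, and 13.2, 15.4 and 12.6 CPM at 8 h. The 0 h libraries spread about as widely as the groups differed, and replicate 1 at 0 h was the highest in each arm. The siControl difference at 8 h was 0.92 ± 0.27 (adjusted p = 0.0641), with no overlap of the groups, and the sip53 difference was 0.49 ± 0.26 (adjusted p = 0.412), with overlap. Without siControl 0 h replicate 1 the siControl value was 1.32 and was called (adjusted p = 0.00861), and without siControl 0 h replicate 2 it was 0.71 (adjusted p = 0.263). With all libraries, the siControl value was called by DESeq2 (adjusted p = 0.0249) and by edgeR with no filter on low counts (adjusted p = 0.00827). Averaged over both arms, a contrast chosen after seeing the data, AMOTL2 rose by 0.70 ± 0.19 at 8 h (adjusted p = 0.0177, 9.6% of genes called), a value that missed the threshold without sip53 0 h replicate 3 (0.58, adjusted p = 0.0504).

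ANKRD1 (chr10:90912096-90921276, minus strand), whose promoter is printed above, had 13.8, 11.7 and 11.4 CPM at 0 h, 23, 15.5 and 19.1 CPM at 2 h, and 16, 14.5 and 12.4 CPM at 8 h in sip53 cells. The siControl libraries had 13.5, 8.21 and 11.7 CPM at 0 h, 19.5, 12.5 and 15.2 CPM at 2 h, and 16.5, 18.9 and 12.4 CPM at 8 h. The 2 h libraries stood above the 0 h libraries in sip53 and overlapped them in siControl. The 2 h differences were 0.65 ± 0.21 in sip53 (adjusted p = 0.392) and 0.49 ± 0.21 in siControl (adjusted p = 0.39), the second of which was 0.32 without siControl 0 h replicate 2. Of the 5 genes this was the largest 2 h difference in sip53, and averaged over both arms it was 0.57 ± 0.15 (adjusted p = 0.0623, 1.34% of genes called). DESeq2 called that average (adjusted p = 0.0168), as did edgeR without siControl 0 h replicate 1 (0.65, adjusted p = 0.0242) and without siControl 2 h replicate 2 (0.64, adjusted p = 0.0477). Without siControl 0 h replicate 2 the average was 0.48 (adjusted p = 0.159), and the highest adjusted p over the alternatives was 0.177, without siControl 2 h replicate 1. ANKRD1 correlated with CCN1 at r = 0.62 over the 18 libraries and with AMOTL2 at 0.62.

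LATS2 (chr13:20973032-21061547, minus strand), the Hippo kinase, had 36.1, 31.3 and 33.8 CPM at 0 h, 30.8, 44.9 and 29.2 CPM at 2 h, and 26.8, 37.3 and 32.8 CPM at 8 h in sip53 cells. It had 33.2, 21.4 and 28.3 CPM at 0 h, 31, 27.8 and 28.5 CPM at 2 h, and 37.3, 38.9 and 36.6 CPM at 8 h in siControl cells. The sip53 groups overlapped at all times, while the siControl libraries at 8 h lay above those at 0 and 2 h. The 8 h difference was -0.07 ± 0.16 in sip53 (adjusted p = 0.911) and 0.44 ± 0.17 in siControl (adjusted p = 0.166), and the difference between those responses was -0.50 ± 0.23, with an unadjusted p of 0.0421 and an adjusted p of 0.999. The siControl value was 0.29 without siControl 0 h replicate 2.

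AXL (chr19:41219203-41261766, plus strand) did not pass the test with E2 in either arm. Its largest difference over time was 0.17 ± 0.11, at 2 h in siControl (adjusted p = 0.577). The arms showed differences for AXL instead, given further on.

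**Figure D3:**
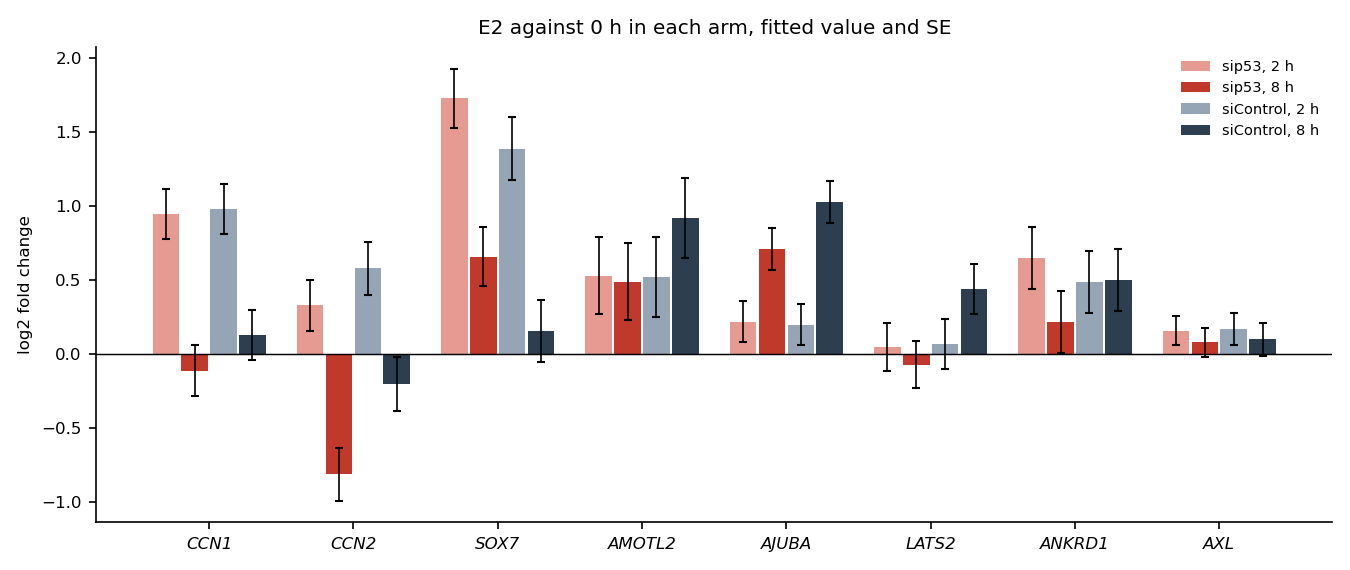
Fitted log2 fold changes of the 8 genes (y axis) at 2 h and 8 h of E2 against 0 h, sip53 in red and siControl in blue, paler at 2 h and darker at 8 h, with SE as error bars. CCN1, CCN2 and SOX7 were picked for this course. The 2 h bars of CCN1 (0.95 and 0.98) and SOX7 (1.73 and 1.39) exceed the 8 h bars, and the 8 h bars of AJUBA (0.71 and 1.03) exceed its 2 h bars.

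Ordered by when the group mean was highest in both arms, CCN1, CCN2, SOX7 and AXL stood highest at 2 h and AJUBA at 8 h. AMOTL2, LATS2 and ANKRD1 had their highest mean at 2 h in sip53 and at 8 h in siControl. No test compared these courses. AMOTL2 correlated with AJUBA at r = 0.66 and with LATS2 at 0.64, and CCN2 with AJUBA at -0.43 (n = 18 libraries). The closest single profiles were IQANK1 (0.94), MID1IP1 and ARHGEF2 (0.93 each) for AJUBA, SMIM15 (0.90) for AMOTL2, ZNF511 (0.83) for LATS2 and MRPL42 (0.82) for ANKRD1. ARHGEF2, an activator of RHOA, averaged 61.8 ± 11.2, 80.1 ± 1.18 and 113 ± 14.1 CPM at 0, 2 and 8 h in sip53, and 58.2 ± 16.7, 74.4 ± 3.66 and 128 ± 14.2 CPM in siControl.

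Knockdown and the 8 genes. With sip53 against siControl, edgeR called 0 of the 8 genes at 0 h (9.12% of all genes called), 0 at 2 h (12.2%) and 0 at 8 h (8.96%). At an unadjusted p under 0.05 there were 2 at each time, CCN2 and AXL at 0 h and SOX7 and AXL at 2 h and at 8 h. Of all 15318 genes, 3886, 4101 and 3747 had such a p at 0, 2 and 8 h, so 2 of 8 is near the share of all genes. DESeq2 called AXL at 0 h and at 2 h (1 of 8 each) and 0 at 8 h. In all, DESeq2 called 1838, 2307 and 1859 genes at these times. The fitted difference was above 0 for 8 of 8 genes at 0 h, 8 of 8 at 2 h and 2 of 8 at 8 h, with medians of 0.21, 0.27 and -0.15 beside 0.00, 0.00 and 0.01 over all genes. The 0 h values rest in part on siControl 0 h replicate 2, without which CCN1 was at -0.16 and AMOTL2 and ANKRD1 at -0.03 each.

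AXL was the member with the steadiest difference. It had 101, 115 and 107 CPM at 0 h, 121, 114 and 125 CPM at 2 h, and 107, 120 and 114 CPM at 8 h in sip53 cells, against 91.1, 96.6 and 71.5 CPM, 98.7, 88.8 and 104 CPM, and 95.4, 91.8 and 91.1 CPM at the same times in siControl cells. At each time all 3 sip53 libraries lay above all 3 siControl libraries. Among all genes this held for 12.6% at 0 h, 15.1% at 2 h and 14.6% at 8 h, and at all 3 times for 635 genes (4.15%). The log2 difference was 0.31 ± 0.11 at 0 h (adjusted p = 0.0636), 0.31 ± 0.11 at 2 h (adjusted p = 0.0586) and 0.29 ± 0.11 at 8 h (adjusted p = 0.0849). In edgeR, the 0 h value was 0.41 and was called without siControl 0 h replicate 2 (adjusted p = 0.0385). It was 0.37 and called without sip53 0 h replicate 1 (adjusted p = 0.043). Other omissions moved it the other way, and its adjusted p was 0.308 without siControl 0 h replicate 3. The highest adjusted p was 0.223 at 2 h, without siControl 2 h replicate 2. At 8 h it was 0.197, without sip53 8 h replicate 2. Averaged over the 3 times, a contrast chosen after seeing the data in which 34.6% of all genes were called, AXL rose by 0.30 ± 0.06, 1.24-fold (adjusted p = 0.000488). That average ran from 0.27 to 0.33 and was called in all 18 fits that left out 1 library. Among its relatives and ligands (GAS6, TYRO3, MERTK and PROS1, 4 of 4 tested), 0 were called at any single time in edgeR, while unadjusted p-values under 0.05 numbered 2, 0 and 1 at 0, 2 and 8 h and DESeq2 called 1, 0 and 0. The counts over all genes in these contrasts are those given above beside the 8 genes. The profile closest to AXL was FASTKD2 (r = 0.90).

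SOX7 was higher in sip53 at 2 h by 0.39 ± 0.19 (adjusted p = 0.185) and at 8 h by 0.55 ± 0.20 (adjusted p = 0.0912), with no overlap between the siRNAs at either time, and differed by 0.06 ± 0.21 at 0 h (adjusted p = 0.898). In edgeR, the 8 h value became 0.76 and was called without siControl 8 h replicate 3 (adjusted p = 0.044). Its adjusted p was 0.321 without siControl 8 h replicate 2. That of the 2 h value was 0.448 without sip53 2 h replicate 3, and 0.0364 with only the groups of the contrast. Averaging over the 3 times was chosen after seeing the data. That contrast called 34.6% of all genes and 2 of the 8 members (SOX7 and AXL). The SOX7 average was 0.33 ± 0.12 and passed the test (adjusted p = 0.0295). It no longer passed in 7 of the 18 fits that each omitted 1 library, which were those omitting sip53 0 h replicate 2 (adjusted p = 0.0682) or 3 (0.0504), sip53 2 h replicate 3 (0.0622), sip53 8 h replicate 1 (0.0647), siControl 0 h replicate 1 (0.0688), and siControl 8 h replicate 1 (0.0507) or 2 (0.069). CCN2 was 0.43 ± 0.18 higher in sip53 at 0 h (adjusted p = 0.134), without overlap, and 0.31 higher without siControl 0 h replicate 2. Its 8 h responses differed by -0.61 ± 0.26 (sip53 minus siControl, unadjusted p = 0.0258, adjusted p = 0.999). That contrast shares libraries with those that picked CCN2, so its p-values are a description. For that difference of responses at 8 h, 0 of 8 genes and 0% of all genes were called in edgeR. An unadjusted p under 0.05 was found for 2 of 8 (CCN2 and LATS2), beside 583 of all 15318 genes. DESeq2 called 0 of 8, and 2 genes in all. CCN1 differed between the siRNAs by 0.09 ± 0.17, 0.06 ± 0.17 and -0.14 ± 0.17 at 0, 2 and 8 h (adjusted p = 0.784, 0.852 and 0.66).

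**Figure D4:**
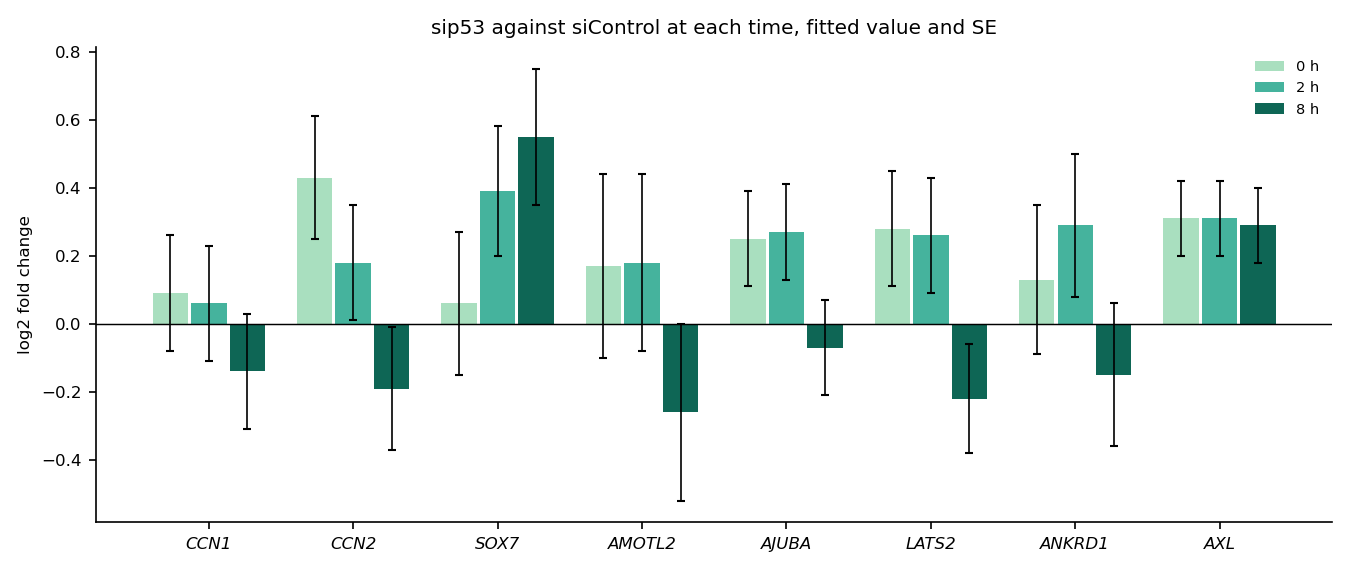
Fitted log2 fold change of sip53 against siControl (y axis) for the 8 genes at 0, 2 and 8 h, with SE as error bars. AXL stands at 0.31, 0.31 and 0.29, SOX7 at 0.06, 0.39 and 0.55, and most other values lie within 2 SE of 0.

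Other genes of the pathway were described from lists. Over all genes tested, 3.98% were called higher and 5.14% lower with sip53 at 0 h, 4.42% and 7.79% at 2 h, and 2.81% and 6.14% at 8 h. With E2 at 2 and 8 h against 0 h, 1139 and 2184 of 15318 genes had an unadjusted p under 0.05 in sip53. In siControl there were 1748 and 2583. DESeq2 called 93 and 622 genes in sip53 and 118 and 670 in siControl. The kinases and adaptors above YAP (MST, LATS, MOB, TAO and related genes, 15 of 17 tested) gave 0 calls with E2 at 2 h or 8 h in either arm, with unadjusted p-values under 0.05 for 2 and 2 genes in sip53 and 0 and 0 in siControl, and with DESeq2 calls for 0 and 2 in sip53 and 0 and 0 in siControl. With sip53 the calls in this list were all lower: 3 at 0 h, 4 at 2 h and 2 at 8 h. TAOK1, a kinase that activates the MST kinases, averaged 70.2 ± 5.87 CPM in sip53 and 112 ± 6.34 CPM in siControl at 2 h (-0.68 ± 0.14, adjusted p = 0.00351). FRMD6, a FERM protein upstream in the cascade, averaged 17.9 ± 1.66 CPM in sip53 and 40.4 ± 0.592 CPM in siControl at 2 h (-1.17 ± 0.16, adjusted p = 0.000129), and fell by 1.16 ± 0.16 at 8 h (adjusted p = 0.000194). The median of the list was -0.15, -0.09 and -0.22 at 0, 2 and 8 h.

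YAP, TAZ, the TEAD factors and their partners (11 of 11 tested) likewise gave 0 calls with E2 against 0 h in either arm in edgeR, with unadjusted p-values under 0.05 for 3 and 4 genes at 2 and 8 h in sip53 and 3 and 3 in siControl, and DESeq2 calls for 0 and 0 in sip53 and 1 and 1 in siControl. With sip53, higher calls in the list numbered 2, 2 and 1 at 0, 2 and 8 h and lower calls 0, 1 and 1, with medians of 0.11, 0.00 and -0.15. VGLL1, a TEAD-binding cofactor, was higher at 0 h (0.48 ± 0.11, adjusted p = 0.00814) and 2 h (0.58 ± 0.10, adjusted p = 0.0014). PTPN14, a phosphatase that binds YAP, was higher at 2 h (0.47 ± 0.09, adjusted p = 0.00177). The lower call at both later times was TEAD1, a TEAD factor itself, at -0.43 ± 0.12 at 2 h (adjusted p = 0.0258) and -0.54 ± 0.12 at 8 h (adjusted p = 0.00944). At 2 h TEAD1 missed the threshold on omitting sip53 2 h replicate 1 (adjusted p = 0.0626) or 3 (0.138), or siControl 2 h replicate 1 (0.0639) or 2 (0.0757), and at 8 h on omitting sip53 8 h replicate 3 (0.0789).

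Of the 22 other YAP targets tested (23 listed), 1 was called at 2 h in each arm and it was F3, the tissue factor gene. F3 had 82.1, 79.6 and 74.5 CPM at 2 h and 28.3, 28 and 26 CPM at 0 h in sip53, a rise of 1.52 ± 0.14 (adjusted p = 9.11e-07), and 89.5, 97.1 and 111 CPM at 2 h and 61.9, 39.5 and 56.8 CPM at 0 h in siControl, a rise of 0.91 ± 0.14 (adjusted p = 0.00123). Unlike CCN1, F3 was still higher at 8 h in sip53 (1.18 ± 0.14, adjusted p = 1.65e-05). Its responses did not differ past the test between the arms (0.61 ± 0.20 at 2 h, sip53 minus siControl, adjusted p = 1). At 8 h, 4 genes of the list were higher and 1 lower in sip53, and 4 were higher and 0 lower in siControl. GADD45A, a growth arrest gene, averaged 172 ± 33.3 CPM at 8 h and 85.5 ± 9.53 CPM at 0 h in siControl (1.00 ± 0.16, adjusted p = 0.000874), and CCDC80, a matrix protein gene, rose by 0.66 ± 0.11 in sip53 (adjusted p = 0.000969). Both were called higher at 8 h in the other arm as well. GADD45A averaged 101 ± 15.5 CPM at 8 h and 64.2 ± 16.9 CPM at 0 h in sip53. CCDC80 averaged 1910 ± 193 CPM at 8 h and 1301 ± 168 CPM at 0 h in siControl. The list median was -0.09 at 2 h and -0.02 at 8 h in sip53, and -0.01 and 0.04 in siControl, beside -0.01 or 0.00 over all genes.

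With sip53, the list had 2 higher calls at 0 h and 1 at each later time, beside lower calls for 4 genes at 0 h and for 5 each at 2 and 8 h. AREG, which encodes the EGF receptor ligand amphiregulin, averaged 28.5 ± 5.98 CPM in sip53 and 70.6 ± 8.62 CPM in siControl at 2 h (-1.31 ± 0.17, adjusted p = 8.99e-05), and 37.9 ± 9.68 CPM in sip53 and 92.6 ± 9.87 CPM in siControl at 8 h (-1.29 ± 0.17, adjusted p = 8.84e-05). IGFBP3, an insulin-like growth factor binding protein gene, averaged 301 ± 6.3 CPM in sip53 and 643 ± 30.3 CPM in siControl at 2 h (-1.09 ± 0.14, adjusted p = 5.68e-05).

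**Figure D5:**
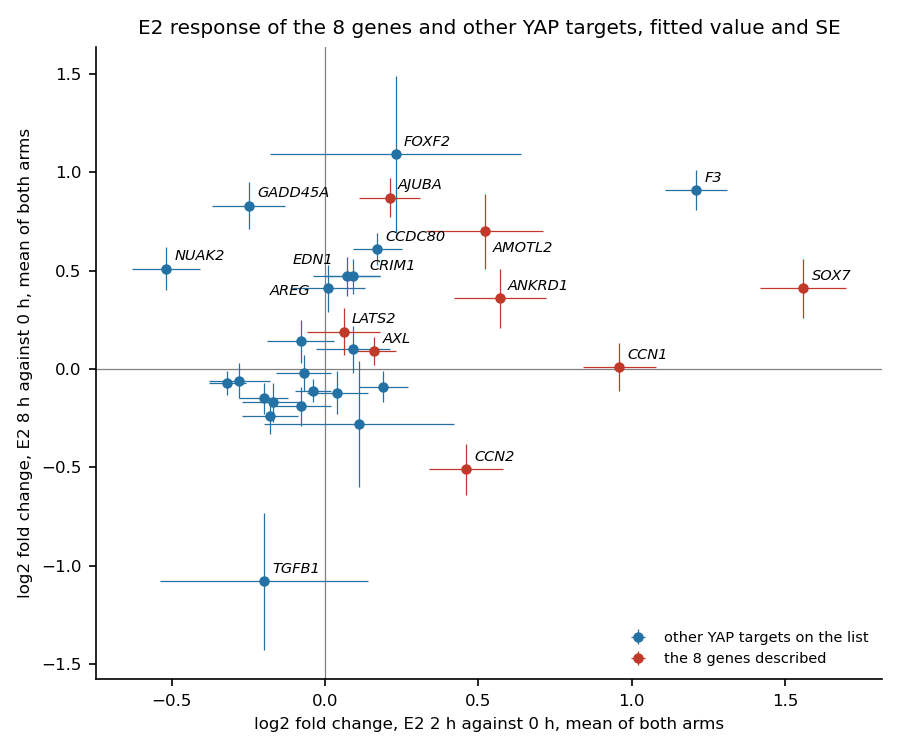
Fitted log2 fold change of E2 at 2 h (x axis) and 8 h (y axis) against 0 h, averaged over both arms, a contrast chosen after seeing the data, for the 8 genes (red) and 22 other YAP targets (blue), with SE as error bars. SOX7 is at 1.56 and 0.41, F3 at 1.21 and 0.91, CCN1 at 0.96 and 0.01, and AJUBA at 0.21 and 0.87, while most of the other targets lie near 0 on the x axis.

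Family members and other early genes were set beside the 8. Of the other CCN genes, 2 of 4 could be tested, and CCN4 and CCN6 had 11 and 0 counts over all 18 libraries. CCN3 averaged 10.3 ± 1.89 CPM in sip53 and 19.9 ± 1.86 CPM in siControl at 2 h (-0.95 ± 0.20, adjusted p = 0.00422). Of the other SOX factors 7 of 9 were tested, and SOX9 alone was called at 2 h, in sip53 (0.96 ± 0.16, adjusted p = 0.00199), while SOX17 and SOX18, the relatives of SOX7 in the same subgroup, had 0 and 18 counts in all. Among genes of SRF and its cofactor MRTF (16 of 18 tested), which share cues with YAP, 1 was called at 2 h in sip53 and 0 in siControl. In siControl, unadjusted p-values under 0.05 numbered 2 (1748 over all genes) and DESeq2 called 1 (118 over all genes). The gene called in sip53 was FHL2, a LIM domain cofactor, which averaged 292 ± 15 CPM at 2 h and 185 ± 7.56 CPM at 0 h in sip53 (0.66 ± 0.10, adjusted p = 0.00043). Of the immediate-early genes (20 of 23 tested), 3 were higher and 1 lower at 2 h in sip53, and 1 was higher in siControl. KLF4, a zinc finger factor, averaged 18.7 ± 1.94 CPM at 0 h, 41.3 ± 2.67 CPM at 2 h and 49.1 ± 7.18 CPM at 8 h in sip53 (1.14 ± 0.18 at 2 h, adjusted p = 0.00147). In siControl it averaged 19.5 ± 7.36, 36.6 ± 2.26 and 48.1 ± 3.32 CPM at the same times. KLF4 thus stayed high in both arms where CCN1 did not. The estrogen-induced list (11 of 17 tested) held CISH, a cytokine signalling inhibitor, which rose by 3.53 ± 0.21 in sip53 and 3.16 ± 0.22 in siControl at 2 h (adjusted p = 6.7e-10 and 1.42e-08), a response larger than that of any of the 8 genes. ESR1, which encodes the estrogen receptor alpha, averaged 95.4 ± 2.48 CPM in sip53 and 67.2 ± 10.5 CPM in siControl at 0 h (0.51 ± 0.12, adjusted p = 0.0114), and the adjusted p was 0.0589 without sip53 0 h replicate 3. Its part in the E2 responses of the 2 arms was not tested.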

How the data were processed

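RNA was measured in 18 PEO1 samples, 3 in each of 6 groups. The libraries were made with a QuantSeq 3' mRNA-Seq kit, per the labels' protocols, so a count reflects transcript 3' ends. The deposited table holds the authors' RSEM expected counts per gene, made with RSEM 1.3.3, and Bowtie2, cutadapt, MultiQC and build hg19 are listed, per the submitters' processing notes. The strand setting and the annotation are not given in the sources used here. Values were already whole, and rounding moved 0.

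Rows were named through their Ensembl transcripts in GENCODE v29 and current symbols, and rows without a name held 0.635% of counts. Coordinates are GRCh38. edgeR 4.0.16 in R 4.3.3 tested 15318 genes (filterByExpr, minimum count 10, TMM) in 1 quasi-likelihood fit of all 18 samples with a coefficient per group and 11 contrasts, Benjamini-Hochberg adjusted within each over all genes, with a call at 0.05. The 4 averaged contrasts were added after the data were seen. DESeq2 1.42.0 was an alternative, beside other scalings, no filter, a replicate term, own-group fits and leaving out each library. SE is that of the fitted log2 change. The fit was tested on simulated data. Replicates differed by more than counting noise (chi-square per degree of freedom 4.044 to 22.87), so none was a copy of another.

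The members, lists and averaged contrasts were chosen with earlier results of these data known. All members are named. From each list the rule named up to 3 called genes per direction with the smallest adjusted p in the contrasts of E2 against 0 h and of the siRNAs. Of these the text mostly gives genes whose calls held in every fit that left out 1 library of the contrast (TEAD1 and ESR1 are exceptions), a selection made after their values were seen. It also named, by likeness, the closest 8 or 3 profiles. The level of the gene that the siRNA targets and 1 of the closest profiles are not reported here.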

Additional observations from a re-analysis of the deposited data

How the results depend on the processing

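Counts of called genes moved with the test, the filter and the samples fitted. DESeq2 called 93 and 118 genes at 2 h against 0 h (sip53 and siControl), 406 and 327 at 8 h against 2 h, 670 at 8 h against 0 h in siControl, and 1 and 2 for the difference between the arms at 2 and 8 h. With no filter on low counts, 204 and 285 genes were called at 2 h against 0 h, 701 and 789 at 8 h, 403 and 313 at 8 h against 2 h, and 36 and 54 for the difference between the arms at 2 and 8 h. With the groups of a contrast alone, 284 were called for sip53 against siControl at 0 h, 270 and 131 at 8 h against 0 h (sip53 and siControl), 375 at 8 h against 2 h in sip53 and 13 at 2 h in siControl. Among the 8 genes, those fits called 1 for sip53 against siControl at 0 h (DESeq2), and at 2 h 1 with upper-quartile scaling, 1 with DESeq2 and 2 with own groups. Among the 5 not picked on values, DESeq2, no filter and own groups each called 1 at 8 h against 2 h in sip53, and DESeq2 and no filter each called 2 at 8 h against 0 h in siControl. The cause of these moves was not tested.

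The highest counts at 2 h and 8 h against 0 h in siControl came without siControl 0 h replicate 1, and the lowest for sip53 against siControl came without sip53 replicate 3 of each time. With 1 library left out, called genes ranged from 289 to 2043, 821 to 1923 and 399 to 1466 for sip53 against siControl at 0, 2 and 8 h, from 30 to 42 and 17 to 144 at 2 h against 0 h (sip53 and siControl), from 213 to 343 and 180 to 739 at 8 h, and from 105 to 154 and 81 to 105 at 8 h against 2 h. Members called ranged from 0 to 1 for sip53 against siControl at 0 h and at 8 h, and from 1 to 2 at 8 h in siControl. AJUBA kept its calls at 8 h against 0 h under every alternative run (adjusted p = 2.56e-05 to 0.0378 in sip53, 5.64e-11 to 0.00362 in siControl).

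Values near 0 that were called nowhere changed sign when 1 library was left out. For sip53 against siControl they ranged from -0.14 to 0.58 (AMOTL2), -0.17 to 0.32 (SOX7), -0.16 to 0.31 (CCN1) and -0.03 to 0.31 (ANKRD1) at 0 h, -0.01 to 0.17 (CCN1) at 2 h, -0.16 to 0.02 (AJUBA) at 8 h, and -0.07 to 0.16 (AMOTL2) and -0.08 to 0.07 (CCN1) as the mean of the times. Over time they ranged for LATS2 from -0.18 to 0.16 (2 h, sip53), -0.19 to 0.04 (8 h, sip53), -0.23 to 0.11 (8 h against 2 h, sip53), -0.07 to 0.23 (2 h, siControl) and -0.05 to 0.14 (2 h, both arms), for AMOTL2 from -0.10 to 0.09 (8 h against 2 h, sip53), for AXL from -0.03 to 0.19 (8 h, siControl) and for ANKRD1 from -0.13 to 0.20 (8 h against 2 h, siControl). The difference between the arms ranged at 2 h from -0.11 to 0.12 (AXL, and 0.01 with upper-quartile scaling), -0.08 to 0.14 (AJUBA), -0.25 to 0.12 (LATS2), -0.40 to 0.32 (AMOTL2), -0.25 to 0.22 (CCN1) and -0.02 to 0.33 (ANKRD1), and at 8 h from -0.13 to 0.10 (AXL) and -0.45 to 0.02 (CCN1).

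Replicate numbers did not pair the libraries: deviations of same-numbered libraries correlated at a median of 0.012 (45 pairs, 3 over 0.1), and 7 of 18 libraries were closest to their own number. The replicate block left 1448, 1868 and 1419 genes called for sip53 against siControl, called the mean 2 h value of ANKRD1 (0.56, adjusted p = 0.0384) and changed no other member's call.

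Of 92 calls of listed genes, 92 held with DESeq2, 82 with no filter and 62 with own groups, where fewer samples entered. Over the fits without 1 library, 177 of 552 lost the call of a listed gene, so the tallies of the lists depend on single libraries. AMOTL2 had the fewest counts per library (38 to 138) and the largest SE of the 8 genes; what depth did to the calls was not tested.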
